A study of Ovis aries with 5 samples.

Results

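MHC class I heavy chains, the molecules that show pieces of a cell's own proteins to CD8 T cells, and PSME2, a subunit of the PA28 proteasome activator, were followed in dendritic cells (DC) of sheep skin lymph. The members were every non-control probe whose annotation on the array names MHC class I and not MHC class II, which gave 15 probes, and every probe named PSME2, which gave 2, together 17 of the 15008 distinct probes on the array. Lymph DC were sorted as CD1b+CD26+ and CD1b+CD26- cells from sheep 30066 and sheep 10081, so that each subset had 2 arrays (n = 2 animals), and the labels give no age, breed or treatment of the animals. Each array carried the sample in Cy3 and a common reference in Cy5. The sample labels describe the reference as total enriched lymph DC of sheep other than these 2, whereas the labelling protocol names RNA of cultured LP-1cl1 cells. 1 further array carried the reference in both dyes, and this self-hybridisation is called total DC here, as on its label. No dyes were swapped.

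A class I molecule is a heavy chain held together with beta-2-microglobulin (B2M) and a peptide that the proteasome has cut and the TAP transporter has carried into the endoplasmic reticulum. PA28, made of PSME1 and PSME2, binds the end of the proteasome's core barrel, opens it and favours short peptides, and both subunits are induced by interferon gamma. Sheep carry several class I genes, and animals differ both in which genes they have and in their alleles. CD26 is dipeptidyl peptidase 4, and the CD26+ DC of sheep lymph have been likened to the DC of mice that excel at presenting engulfed antigen on class I. The array names no class I gene by its place in the genome. Each probe is named here by the allele or clone in its annotation, or by its sequence record where there is none. The 15 probes come from 14 records, B564 having 2, called B564a and B564b here as the PSME2 probes are called PSME2a and PSME2b.

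Class I probes are alike in sequence, and the stretch of the gene that a probe reads decides how many alleles it can bind. All 17 probes are 60 bases long, and they are printed 5′ to 3′ as the array lists them. The 6 probes ShB, EF489540, G6, H10, C7 and B564b read the end of the coding sequence, at or just before its stop codon. The first 3 are shown whole because they differ from one another at few bases, the capitals marking where ShB and EF489540 differ from each other and where G6 differs from ShB.
ShB: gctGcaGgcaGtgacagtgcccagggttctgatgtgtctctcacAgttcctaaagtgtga
EF489540: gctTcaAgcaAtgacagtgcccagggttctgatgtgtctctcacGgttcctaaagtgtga
G6: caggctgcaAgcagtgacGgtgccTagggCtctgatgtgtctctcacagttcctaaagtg
ShB and EF489540 were identical at 56 of 60 bases and G6 and ShB at 53 of the 57 bases they share. B564b shared 41 of 42 bases with EF489540.

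H10 and C7 start closer to the stop codon and run past it. They were identical at 57 of 60 bases, and all 3 differing bases, in capitals, lie in the coding part, which is shown because these 2 probes gave nearly the same values on the arrays.
H10: TtctCaCggttcctaaagtgtga
C7: CtctTaTggttcctaaagtgtga

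The probes for E9, EF489515, EF489531 and B564a read stretches inside the coding sequence, each with an open reading frame, and shared no run of 12 bases or more with another member. They are shown because E9, EF489515 and EF489531 held the 3 highest ratios in CD26- cells of sheep 30066, and B564a is the brightest class I probe.
E9: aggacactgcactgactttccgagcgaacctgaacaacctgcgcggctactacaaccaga
EF489515: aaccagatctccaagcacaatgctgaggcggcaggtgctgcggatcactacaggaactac
EF489531: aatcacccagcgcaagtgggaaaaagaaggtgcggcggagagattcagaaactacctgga
B564a: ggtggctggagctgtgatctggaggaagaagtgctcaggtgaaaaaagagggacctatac

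The last 5 class I probes, M34672 to M34676, read the 3′ end of the gene and shared 37 to 53 bases in pairs. An aligned stretch of 30 bases is shown, with capitals where a probe differs from M34676, because values of these 5 probes spread widely although their sequences are close.
M34676: ttcgtatgcactgagtaatgatgtcttatt
M34675: ttcAtatgcactgagtaatgatgtGttatt
M34674: ttcACatgcactgagtaatgatgtcttatt
M34673: ttcAtGtgcactgagtaatgatgtcttatA
M34672: ttcAtatgcactTagtaatgatgtcttatt

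The 2 PSME2 probes read the end of the PSME2 coding sequence and overlap by 58 bases, all of them identical, so they are 2 readings of 1 site. Capitals mark the stop codon that closes the first.
PSME2a: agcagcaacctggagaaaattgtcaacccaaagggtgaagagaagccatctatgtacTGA
PSME2b: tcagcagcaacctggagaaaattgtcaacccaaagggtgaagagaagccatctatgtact

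All 17 probes were well above background in both dyes on all 5 arrays, and none was saturated or left out as an outlier on any of them. The class I probes ranked between 2 and 534 in brightness among the 13264 probes tested, and the PSME2 probes ranked 1355 and 1505. Values are log2 ratios of Cy3 over Cy5 unless said otherwise, so a value of 1 is a doubling against the reference. Over all tested probes the log2 ratios spread with an SD of 0.29 when the reference was hybridised to itself, of 1.18 in both subsets of sheep 30066, and of 1.34 and 1.42 in CD26- and CD26+ cells of sheep 10081. The arrays of sheep 30066 and the self-hybridisation lay in one row of the slide and those of sheep 10081 in the other, so the animal and the slide row cannot be told apart. CD1, a DC marker, was higher in CD26+ than in CD26- cells in both sheep, by 1.64 and 1.92, and CD86 by 0.90 and 1.32. FCER1A, a chain of the IgE receptor and the third of 3 DC markers tested, went the other way, by -1.36 and -1.92. The probe named CD1B, a marker of the sort, was well above background on 1 of 5 arrays, and CD26 itself was not analysed here.

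The first comparison asked how the subsets differ from total DC. Class I probes stood higher and PSME2 lower in both subsets than on the self-hybridisation, in both sheep. The reference came from other sheep by the sample labels, or from cultured cells by the labelling protocol. Sorting, animal and source of the RNA therefore cannot be told apart in this comparison. The median of the 15 class I probes was -0.40 on the self-hybridisation, -0.08 and 0.72 on the CD26- arrays of sheep 30066 and sheep 10081, and 0.49 and 1.63 on the CD26+ arrays of the same animals. For each of the 15 class I probes the self-hybridisation was the lowest of the 5 arrays and a CD26+ array the highest. On the self-hybridisation 13 of the 15 class I probes lay below 0, where the same RNA in both dyes would place them at 0, and the range was -0.83 to 0.45.

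For CD26+ cells against total DC the class I probes differed by a median of 1.38 (range 0.85 to 2.02), beside a median of -0.02 over all probes tested. The class I median was 0.87 without the CD26+ array of sheep 10081 and 1.93 without that of sheep 30066. Both CD26+ arrays lay above the self-hybridisation for 15 of 15 class I probes, against 34.3% of all probes, and by at least 2-fold in both sheep for 4 of 15, against 9.9%. None of the 17 members passed an adjusted p of 0.05 (limma with Benjamini-Hochberg adjustment), nor did any of the 13204 probes with a value in this comparison (0%), while 11.3% of them had an unadjusted p under 0.05. M34674, a 3′ end probe, had the largest mean difference, 2.02 (SE 1.05, 4.06-fold, adjusted p = 0.549 by limma). Its ratio was -0.30 in total DC, 0.91 in CD26+ cells of sheep 30066 and 2.53 in those of sheep 10081, so the animals lay further apart than sheep 30066 lay from total DC. B564a was the most even, reading 0.73 in CD26+ cells of sheep 30066, 0.71 in those of sheep 10081 and -0.54 in total DC, a difference of 1.27 (SE 0.43, unadjusted p = 0.0369, adjusted p = 0.409 by limma). It was the 1 class I probe with an unadjusted p under 0.05, where 6.07% of all probes reached that in the same direction. The difference of B564a was 0.86 with the median of each array set to 0 in place of loess, and 0.33 with the scanner's own normalised signals.

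For CD26- cells against total DC the class I median difference was 0.73 (range 0.42 to 1.49), beside -0.03 over all probes. The class I median was 0.23 with the median of each array set to 0 in place of loess, 0.37 without the CD26- array of sheep 10081 and 1.08 without that of sheep 30066. The 15 class I probes again all had both arrays above the self-hybridisation, against 33.9% of all probes, but 1 of 15 was at least 2-fold higher in both sheep, where 10.2% of all probes were. That probe, EF489515, read 0.45 in total DC and 1.45 and 2.43 in CD26- cells. No member passed the adjusted threshold (smallest adjusted p among the class I probes 0.678, limma), and none of all probes did (0%), with 10.6% at an unadjusted p under 0.05. For G6, EF489540 and B564a the direction depended on the normalisation. G6 stood at 0.42 with the within-array loess used here, at -0.085 with the median of each array set to 0 instead, which moved the median of all probes to -0.23, and at -0.24 with the scanner's own normalised signals. EF489540 stood at 0.54 and at -0.011 under median centring, and B564a at 0.65 and at -0.067 with the scanner's signals. Both comparisons use the same single self-hybridisation, so they share its error.

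PSME2 stood apart from the class I probes. PSME2a read 0.00 in total DC, -1.58 in CD26- and -2.14 in CD26+ cells of sheep 30066, and -2.05 in CD26- and -1.59 in CD26+ cells of sheep 10081. PSME2b read -0.14, -1.57, -2.01, -1.95 and -1.64 in the same order. All 4 subset arrays thus lay well below the self-hybridisation at both probes, while the order of the subsets was opposite in the 2 animals. By PSME2a, the brighter, PSME2 differed from total DC by -1.86 (SE 0.51, 3.63-fold lower) in CD26+ cells and by -1.81 (SE 0.51, 3.52-fold lower) in CD26- cells, with adjusted p-values of 0.367 and 0.398 by limma, so neither passed. Both PSME2 probes were at least 2-fold lower in both sheep, as were 8.79% of all probes for CD26+ cells and 7.51% for CD26- cells, while 38.8% and 38.1% lay below the self-hybridisation by any amount. The unadjusted p-values of PSME2a were 0.0181 and 0.0198, in shares of 5.23% and 4.32% of all probes that were lower at an unadjusted p under 0.05. The reference signal of PSME2 was steady, its Cy5 level on the subset arrays lying within 0.31 of the self-hybridisation at both probes. Lower PSME2 RNA per cell and fewer cells that express it cannot be told apart in sorted bulk RNA, here and for every value given.

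The second comparison set CD26+ against CD26- cells, within each animal. 14 of the 15 class I probes had the higher value in CD26+ cells of both animals, against 27.5% of all probes, and 0 were lower in both, against 28.6%. Many of these probes are alike in sequence and may bind the same transcripts, so they are not 15 separate measurements. The mean differences over the 2 animals were below 2-fold, with a class I median of 0.57 (range 0.18 to 0.87), beside -0.01 over all probes. The class I median was 0.55 in sheep 30066 and 0.65 in sheep 10081. Within 1 animal, EF489515 exceeded 2-fold, at 1.03 in sheep 10081. No member reached 2-fold in one direction in both animals, as 5.4% of all probes did. Limma called 0 of the 13264 probes tested at an adjusted p of 0.05 (0%), and 0 of the 17 members had an unadjusted p under 0.05, where 5.64% of all probes did.

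Of the 5 probes at the 3′ end, 4 had the largest mean differences between the subsets among the class I probes. M34674 was higher in CD26+ cells by 0.90 in sheep 30066 and 0.84 in sheep 10081, a mean of 0.87 (SE 0.86, adjusted p = 1 by limma). M34673 differed by 0.79 and 0.82, M34672 by 0.67 and 0.91, and M34675 by 0.67 and 0.85. These 4 probes read between -0.30 and 1.70 in CD26- and between 0.38 and 2.53 in CD26+ cells. The within-animal differences of the ratios were close to each other. The standard errors, which hold the distance between the animals, ran from 0.51 for M34675 and 0.64 for M34672 to 0.86 for M34673 and M34674. In Cy3 alone, with the median of each array set to 0, M34675 read 6.49 and 7.07 in CD26- and CD26+ cells of sheep 30066. In those of sheep 10081 it read 7.30 and 7.34, a Cy3 difference of 0.04, while the Cy5 signal differed by -1.06. With the animal as a block the SE of M34674 was 0.30 and its adjusted p 0.594, so the call was the same. M34676, the fifth of them and the brightest, read -0.11 and 0.34 in CD26- and CD26+ cells of sheep 30066 and 0.27 and 0.75 in sheep 10081, differences of 0.45 and 0.49.

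Among the probes at the end of the coding sequence, H10 read -0.14 in CD26- and 0.41 in CD26+ cells of sheep 30066, and 1.14 in CD26- and 1.79 in CD26+ cells of sheep 10081. Its near copy C7 read -0.01, 0.58, 1.24 and 1.78 in that order. The subsets thus differed by 0.55 and 0.65 for H10 and by 0.59 and 0.54 for C7, less than the animals did. ShB had the smallest difference of all class I probes, 0.10 and 0.26, a mean of 0.18 (SE 0.40). EF489540, which differs from ShB at 4 bases, stood at 0.45 and 0.33, and G6 at 0.62 and 0.34. B564b stood at 0.38 and 0.77, and the second probe of that record, B564a, inside the coding sequence, at 0.77 and 0.46, so the 2 probes of 1 record took opposite orders in the 2 animals. Both CD26+ arrays lay above both CD26- arrays for 2 of 15 class I probes, B564a and M34676, against 14.9% of all probes. For the other 13 the CD26+ array of sheep 30066 lay below the CD26- array of sheep 10081.

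Of the remaining probes inside the coding sequence, E9 read 0.47 and 0.89 in CD26- and CD26+ cells of sheep 30066 and 1.52 and 2.14 in those of sheep 10081, differences of 0.42 and 0.62. EF489531 differed by 0.39 and 0.74. EF489515 was the 1 class I probe without a common direction, with -0.13 in sheep 30066 and 1.03 in sheep 10081. PSME2 also went in opposite directions, by -0.55 and 0.46 at PSME2a and by -0.44 and 0.31 at PSME2b, which gave means of -0.05 (SE 0.41) and -0.07 (SE 0.38) with adjusted p = 1 at both (limma). PSME2a and PSME2b took the same directions, which is no second measurement of the cells because they read 1 site.

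The animals differed more than the subsets did. The class I median was higher in sheep 10081 than in sheep 30066 by 0.75 in CD26- cells and by 0.89 in CD26+ cells, beside medians of 0.00 and 0.01 over all probes, and for 13 of 15 class I probes the mean of these 2 differences was larger than the mean difference between the subsets. 14 of 15 were higher in sheep 10081 in both subsets, against 31.7% of all probes, and for 13 of 15 both arrays of sheep 10081 lay above both arrays of sheep 30066, against 23%. In both subsets 6 of 15 were at least 2-fold higher in sheep 10081, against 6.38%. That count of 6 was 3 with the scanner's own signals and 3 with the arrays scaled to the same spread. With 1 animal on each side there is no test of this difference.

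The distance between the animals varied from probe to probe, and it was alike in the 2 subsets for most of them. M34674 was higher in sheep 10081 by 1.69 in CD26- cells and 1.62 in CD26+ cells, and M34673 by 1.64 and 1.67. Their neighbour M34676, identical to each of them at 46 bases, differed by 0.38 and 0.42. Probes of the same 3′ end window thus differed in how far the animals lay apart, with M34675 at 0.71 and 0.89 and M34672 at 1.01 and 1.25 in between. At the end of the coding sequence, H10 differed by 1.28 and 1.38 and C7 by 1.25 and 1.21, whereas ShB stood at 0.37 and 0.52, EF489540 at 0.47 and 0.34, G6 at 0.75 and 0.47 and B564b at 0.42 and 0.82. H10 and C7, which differ at 3 bases, thus lay close together and above the other 4 probes of this window in both subsets. B564a showed the smallest distance, 0.30 in CD26- cells and -0.02 in CD26+ cells, and E9 and EF489531 stood at 1.05 and 1.25, and at 0.52 and 0.87. PSME2 did not differ in 1 direction, with -0.46 in CD26- and 0.55 in CD26+ cells at PSME2a.

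EF489515 had the highest ratio of all members, and its 2 dyes have to be read apart. Its ratios were 0.45 in total DC, 1.45 and 1.32 in CD26- and CD26+ cells of sheep 30066, and 2.43 and 3.46 in those of sheep 10081. In Cy3 alone, with the median of each array set to 0, it was 4.33 in total DC, 5.09 and 5.14 on the CD26- and CD26+ arrays of sheep 30066, and 7.59 and 7.84 on those of sheep 10081, so the sample signal was higher in sheep 10081 by 2.50 in CD26- and 2.70 in CD26+ cells. The Cy5 signal of this probe, which carries the same reference on every array, was 4.27 on the self-hybridisation and 4.19 and 4.33 on the arrays of sheep 30066, but 6.40 and 5.43 on those of sheep 10081. The reference signal was thus higher by 2.12 on the CD26- array and 1.16 on the CD26+ array of sheep 10081 than on the self-hybridisation, where 0.969% and 0.559% of all tested probes had a Cy5 signal at least 2-fold above it. Between the CD26+ and CD26- arrays of sheep 10081, whose ratios differed by 1.03, the Cy3 signal differed by 0.25 and the Cy5 signal by -0.97.

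M34674 showed the same on a smaller scale. Its Cy3 signal was higher in sheep 10081 by 2.36 in CD26- and 1.89 in CD26+ cells, and its Cy5 signal by 1.26 and 0.70. Over the 15 class I probes the Cy5 signal was above the self-hybridisation by a median of 0.44 on the CD26- array of sheep 10081, and by -0.05, 0.00 and 0.02 on the CD26- and CD26+ arrays of sheep 30066 and the CD26+ array of sheep 10081. On the CD26+ array of sheep 10081 the class I probes spread from -0.75 (M34675) to 1.16 (EF489515) around that median, where the SD over all tested probes was 0.32. B564a and PSME2a, by contrast, kept their Cy5 signal within 0.16 of the self-hybridisation on the arrays of sheep 10081. With the Cy3 signals alone, each array centred on its upper quartile, the class I median was higher in sheep 10081 by 1.001 over both subsets, against 0.80 for the ratios. In sheep 10081 the Cy5 signal was lower on the CD26+ than on the CD26- array for each of the 15 class I probes. These differences ran from -1.06 (M34675) to -0.16 (M34676), while those in Cy3 ran from 0.04 (M34675) to 0.68 (B564b). H10, whose ratios differed by 0.654 between these arrays, differed by 0.105 in Cy3 and by -0.835 in Cy5. Between the subsets of sheep 10081 the Cy3 difference was smaller than the ratio difference for most class I probes. It was larger for B564a (0.519 against 0.458), EF489540 (0.354 against 0.327), G6 (0.388 against 0.345) and M34676 (0.548 against 0.486). The source of the Cy5 differences was not tested.

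A search of the array for other probes sharing at least 20 bases in a row with a member, on either strand, found 2, both matching EF489531 and neither annotated as class I. CN824748, a spleen and brain cDNA, is identical to EF489531 at 50 of 57 bases. It read 0.24 in total DC, 0.94 and 0.93 in CD26- and CD26+ cells of sheep 30066, and 0.88 and 1.67 in those of sheep 10081. Like EF489531, with 0.33, 0.80, 1.18, 1.32 and 2.06 in the same order, it was lowest in total DC and highest in CD26+ cells of sheep 10081, but its CD26- values did not differ between the animals in the same way (-0.05 against 0.52). EE747284, identical at 37 of 57 bases, read between -0.21 and 0.54.

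Few partners of class I could be followed. Listed genes were looked up by symbol, which 1311 of the 15008 probes carried, so an unmeasured gene may still have a probe. Of 15 genes listed for class I assembly and peptide loading, 2 were measured here. B2M, the light chain of every class I molecule, read -0.37 in total DC, -0.95 and -0.23 in CD26- and CD26+ cells of sheep 30066, and -2.06 and -1.09 in the same cells of sheep 10081. Like the heavy chain probes it was higher in CD26+ than in CD26- cells in both animals, by 0.72 and 0.97, a mean of 0.85 (SE 0.58, adjusted p = 0.966 by limma). Unlike them it was lower in sheep 10081 than in sheep 30066, by -1.11 in CD26- and -0.86 in CD26+ cells, and the CD26- arrays lay below total DC, by a mean of -1.14 (SE 0.71, adjusted p = 0.667 by limma). The second B2M probe gave the same directions. HSPA5, a chaperone of the endoplasmic reticulum, read -0.48 in total DC and between -2.23 and -0.64 in the subsets.

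On the proteasome side, none of the 7 genes listed as activators and immunoproteasome subunits other than PSME2 was measured here. Of 14 subunits of the core barrel, PSMB7 was measured and stood at -2.27 for CD26+ against CD26- cells in sheep 30066 and at -0.06 in sheep 10081. Of 20 subunits of the 19S regulator, PSMD4, a ubiquitin receptor, was measured and stood at 0.07 and 0.12. Among 5 ubiquitin genes 3 were measured. PSMD4 also lay below total DC on all 4 subset arrays. Its mean differences were -0.36 (SE 0.58) in CD26+ cells and -0.46 (SE 0.58) in CD26- cells, smaller than those of PSME2. PSMB7 differed from total DC by -1.53 (SE 0.77) in CD26+ cells, beside -1.86 for PSME2a, and by -0.37 (SE 0.77) in CD26- cells. No gene of these lists passed the adjusted threshold in any of the 3 comparisons (limma).

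Of 27 genes listed for the interferon response, which induces class I and PSME2 in many cells, 8 were measured and 0 passed in any comparison. For CD26+ against CD26- cells 3 were higher in both animals and 1 lower in both, and the list's median was 0.40. IRF1, a transcription factor of that response, was higher by 0.92 in sheep 30066 and 0.86 in sheep 10081, a mean of 0.89 (SE 0.42, adjusted p = 0.907 by limma). CXCL10, a chemokine it induces, stood at 2.12 and 0.93, and MX2, an antiviral GTPase, at 0.14 and 2.68. MX1, its relative, read 1.17 and 0.03 in CD26- and CD26+ cells of sheep 30066 and -2.26 and -1.31 in those of sheep 10081, so MX1 was lower in sheep 10081 in both subsets, where 14 of 15 class I probes were higher. Of the 8 genes, 2 were higher in sheep 10081 in both subsets, IRF1 and CXCL10, and 3 were lower.

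Markers of other cells were measured beside these values. Of 10 T cell genes 6 were tested, 4 of which were higher in sheep 10081 in both subsets and 1 lower. CD3D, a chain of the T cell receptor complex, read -0.11 in total DC, 1.41 and 0.10 in CD26- and CD26+ cells of sheep 30066, and 4.11 and 3.18 in those of sheep 10081. CD247, another chain of that complex, read -0.03, -1.92, -0.30, -2.53 and -1.45 in the same order and was the gene lower in sheep 10081. The other genes higher there were CD3E, by 0.20 in CD26- and 1.43 in CD26+ cells, CD28, by 0.26 and 0.19, and CD4, by 0.09 in both. CD4 was well above background on 2 of 5 arrays. The summed Cy3 signal of the 6 genes, as log2 above the array median, was 5.33 in total DC, 4.62 and 6.38 in CD26- and CD26+ cells of sheep 30066 and 5.15 and 5.98 in those of sheep 10081, so it was higher in CD26+ cells of both animals. By their ratios, 3 of the 6 were higher in CD26+ cells of both animals and 2, CD3D among them, were lower in both. CD14, of monocytes and macrophages, the 1 of 7 such genes measured, stood at -1.10 for CD26+ against CD26- cells, and GNLY, of NK and T cells, the 1 of 5 NK genes, was highest in total DC. None of the 4 B cell and 3 neutrophil genes listed was measured here. T cells also carry class I, and the part of these cells in the class I values was not tested.

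Closeness of ratios over the 5 arrays was taken among 637 named genes with a tested probe. Those nearest to PSME2 included BBC1 (root mean square difference 0.42) and ITGB1, an integrin chain (0.44). The nearest to B564a, the brightest class I probe, were ATP5MC2, a subunit of ATP synthase (0.23), PABPC1, a poly(A) binding protein (0.26), and NMDAR1 (0.27). ITGB1 read 0.07 in total DC and between -1.71 and -1.23 in the subsets, close to PSME2. PABPC1 read -0.13 in total DC and 0.22, 0.49, 0.45 and 0.71 in CD26- and CD26+ cells of sheep 30066 and of sheep 10081.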

How the data were processed

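The members and gene lists were chosen with earlier results of these data known. The authors deposited the spot intensities of the scanner's Feature Extraction software, whose version is 9.5.3.1 in the file headers. Their log10 ratios, per the file headers Cy5 over Cy3, were turned by the authors into the deposited log2 values of Cy3 over Cy5, which add nothing independent. The alignment of probes to a genome build is not given in the sources used here.

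From mean signals and local backgrounds, normexp (offset 50, fitted without spots whose background exceeded 5 times the array median) and loess within arrays were run in limma 3.58.1 under R 4.3.3, with the 536 control spots at weight 0 and left out. Spots flagged as outliers were left out and spots of a probe averaged. A probe was tested when its Cy3 signal was well above background on 2 or more of the 5 arrays. One model with 3 group means (2 residual and 2.36 prior degrees of freedom) gave Benjamini-Hochberg adjusted p-values over all tested probes, with a threshold of 0.05. The number of arrays limits the precision. P-values rest on 2 animals per subset and 1 self-hybridisation. The same animal gave both subsets, per the labels, and over probes its 2 arrays deviated from their group means together (r = 0.33), so a block for the animal was run as an alternative. Symbols (1311 probes, 765 genes) came from the files and RefSeq (ARS-UI_Ramb_v3.0, 1031 probes). Named genes were all members, the listed pathway genes with the largest differences and the 3 genes nearest in ratio. 1 gene that the rule names is not reported here. The fit was tested on simulated data.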

Additional observations from a re-analysis of the deposited data

Results flagged for a closer look

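The difference between CD26+ and CD26- cells had opposite signs in the 2 animals for 3 probes, and the difference between the animals was not tested. EF489515 stood at -0.132 in sheep 30066 and 1.03 in sheep 10081. PSME2 stood at -0.554 and 0.459 at PSME2a and at -0.44 and 0.305 at PSME2b, which read the same site. The reference signal, which no comparison uses on its own, was higher for EF489515 on the arrays of sheep 10081 than on the self-hybridisation, by 2.12 on the CD26- array and by 1.16 on the CD26+ array.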

How the results depend on the processing

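No probe passed the adjusted threshold in any comparison under any alternative. Among kept-array alternatives the sign of PSME2 for CD26+ against CD26- cells turned with the Cy3 signals alone (0.12), a setting chosen after seeing the data, and its value ran from -0.32 to 0.23 when each subset array was left out in turn. The class I median of that comparison was 0.69 with the normexp model fitted on every spot, 0.69 with median centring and 0.48 with the scanner's processed signals, and 0.11 to 1.15 with 1 subset array left out. Leaving out the CD26- array of sheep 30066 or the CD26+ array of sheep 10081 sets the animals against each other, and in each case 9 class I probes were then higher and 6 lower. These 6 ranged, over the 4 arrays left out, from -0.08 to 0.44 (ShB), -0.087 to 1.29 (H10), -0.62 to 1.51 (EF489515), -0.027 to 1.64 (M34673), -0.06 to 1.19 (C7) and -0.11 to 1.15 (E9). For CD26- cells against total DC, EF489540 (-0.011) and G6 (-0.085) turned under median centring, B564a (-0.067) and G6 (-0.24) with the processed signals and G6 (-0.05) with Cy3 alone. For CD26+ cells against total DC the 15 class I probes were higher in every alternative run, while their median ran from 0.87 to 1.93. Single probes came closer to no difference with the processed signals, G6 at 0.18, ShB at 0.32 and B564a at 0.33, where the main fit gave 0.905, 0.85 and 1.265. The distance between the animals, over both subsets 0.80, was 0.63 with median centring, 0.65 with the processed signals, 0.65 with scaled arrays and 1.001 with Cy3 alone, and its count of 2-fold probes, 6, was 3 with the processed signals and 3 with scaled arrays. The cause of these shifts was not tested. The animal as a replicate block called 0 probes and changed no call. Under the block 0 class I probes had an unadjusted p under 0.05 between the subsets, where 8.46% of all probes did. That count was 12 for CD26+ cells against total DC (17.6% of all probes) and 2 for CD26- cells (15.8%). The counts that need both arrays of each animal could not be run with an array left out, nor could the single self-hybridisation be left out.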
